A study of Mus musculus with 18 samples.

Results

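The genes described here are 10 immediate early genes: the FOS family members Fos, Fosb and Fosl1, the JUN family members Jun and Junb, the zinc finger factor gene Egr1, the stress-responsive factor gene Atf3, the response genes Ier2 and Ier3, and the phosphatase gene Dusp1. They were taken by symbol from the deposited count table, where all 10 were found among 21859 genes. Of these, 9 passed the low-count filter, together with 15935 other genes, and Fosl1 did not.

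Immediate early genes are transcribed within minutes of a stimulus, before new protein has to be made, and they fall again once the signal ends. Growth factors, calcium, cyclic AMP and stress kinases act on them through transcription factors that are already in the nucleus, such as SRF with its ELK partners, CREB and ATF2. Dissection and dissociation of a tissue are known to switch them on too, so they are often read as a record of how a sample was handled.

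RNA was sequenced in bulk from mouse retinal pigment epithelium (RPE), the pigmented layer that supports the photoreceptors. There were 18 libraries in 4 groups: RPE of young mice (Young, n = 7), of aged mice (Old, n = 4), of aged mice after AAV2-tTA (Old control, n = 3) and of aged mice after AAV2-tTA;TRE-OSK (Old OSK, n = 4). The vector AAV2 derives from adeno-associated virus. The transactivator tTA acts on the TRE promoter, and OSK stands for the reprogramming factors OCT4, SOX2 and KLF4. Both vector groups therefore carried tTA, and the Old OSK group differed from Old control by the TRE-OSK vector. In each group the tissue went into RNAprotect and then TRIzol. Strain, age, the promoter driving tTA, the vector dose, the time after treatment and the number of animals per library are not given in the labels used here. No label says that libraries come from separate animals, so p-values measure the spread between these libraries, which may be technical.

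Promoter windows are shown for 4 of the genes whose values are described below, 1 each from the FOS, JUN, ATF and phosphatase genes, to set the letters of their proximal promoters beside their values. Of these 4, only Atf3 was called in a main fit described below, while Fos, Jun and Dusp1 were called in some alternative fits. The sequences are from RefSeq on GRCm38.p6, run 5′ to 3′ on the gene's strand, and cover 250 bases before the start site and the first 50 transcribed bases. Entries were matched for 7 of the 10 genes, and not for Fosl1, Egr1 and Ier2. Capitals mark TGACG (the core of the cyclic AMP response element), TGACGTCA (the full element, which holds that core on both strands), TGACATCA (the variant in Jun) and TATAAA. The windows are chr12:85473640-85473939 on the plus strand for Fos, and on the minus strand chr4:95052173-95052472 for Jun, chr1:191183284-191183583 for Atf3 and chr17:26508423-26508722 for Dusp1.
Fos: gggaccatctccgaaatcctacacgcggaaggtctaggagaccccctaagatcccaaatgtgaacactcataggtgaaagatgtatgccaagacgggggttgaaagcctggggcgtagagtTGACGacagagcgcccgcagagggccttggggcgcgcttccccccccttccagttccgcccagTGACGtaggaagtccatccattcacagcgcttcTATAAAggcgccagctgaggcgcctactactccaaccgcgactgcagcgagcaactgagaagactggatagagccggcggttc
Jun: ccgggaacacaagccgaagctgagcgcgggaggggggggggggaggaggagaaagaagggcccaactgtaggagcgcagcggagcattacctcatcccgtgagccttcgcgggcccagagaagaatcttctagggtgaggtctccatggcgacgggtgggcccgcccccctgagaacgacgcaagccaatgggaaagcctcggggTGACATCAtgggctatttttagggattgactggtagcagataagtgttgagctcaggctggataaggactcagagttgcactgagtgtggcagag
Atf3: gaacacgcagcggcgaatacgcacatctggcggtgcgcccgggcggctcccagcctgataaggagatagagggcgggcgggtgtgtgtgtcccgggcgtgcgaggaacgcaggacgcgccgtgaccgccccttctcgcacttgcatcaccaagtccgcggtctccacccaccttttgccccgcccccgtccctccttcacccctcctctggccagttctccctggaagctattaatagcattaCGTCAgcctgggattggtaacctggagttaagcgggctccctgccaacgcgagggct
Dusp1: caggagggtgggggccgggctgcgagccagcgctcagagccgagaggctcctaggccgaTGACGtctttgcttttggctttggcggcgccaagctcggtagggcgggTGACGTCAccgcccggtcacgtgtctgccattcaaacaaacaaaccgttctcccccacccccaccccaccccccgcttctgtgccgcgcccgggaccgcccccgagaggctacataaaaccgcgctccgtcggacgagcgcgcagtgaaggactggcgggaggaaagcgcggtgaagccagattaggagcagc

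Counted from the start site, where -1 is the base before it, Fos had TGACG at -129 to -125 and at -66 to -62, and TATAAA at -33 to -28. Jun had TGACATCA at -45 to -38. Atf3 had the core on the other strand at -7 to -3, read there as CGTCA. Dusp1 had the full TGACGTCA at -143 to -136 and a further core at -191 to -187. The gene models of Atf3 and Dusp1 given below reach further upstream, to chr1:191218039 and chr17:26562128. Their windows thus describe 1 annotated start each, inside the model. With both strands searched, TGACG was in 5 of the 7 windows and in 20.8% of all 32851 windows of that length, and this core was added to the search after the windows had been seen. TGACGTCA was in 1 of 7 (1.79% of all windows), TGACATCA in 1 (3.62%) and TATAAA in 2 (13.6%). The AP-1 element TGACTCA was in none of the 7 (5.2% of all) and neither was the CArG box, the element bound by SRF (1.63% of all). A match is only a description of the letters, and no match says only that these letters are not in this window.

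Library totals lay between 18104828 and 32348136 counts, and 16296 to 18279 genes had at least 1 count. The 13 RPE marker genes (Rpe65, Rlbp1, Lrat and others) were above 0 in every library, which at this depth does not by itself test the RPE label. Their summed level was 42330 to 66870 CPM, the count scaled to a common library size, in Young, 28380 to 48600 in Old, 21730 to 63070 in Old control and 16870 to 30910 in Old OSK. In bulk tissue, fewer cells of a type and less RNA per cell cannot be told apart. All 12 rod markers were present in every library too, at a summed 459 to 3514 CPM in Young, 2475 to 8332 in Old, 1935 to 20690 in Old control and 3244 to 17380 in Old OSK. Old replicate 4 and Old control replicate 2 stood among the Old OSK libraries on the first principal component of all genes, with scores of 73.2 and 61.8 against 45.7 to 96 in Old OSK. An M that the labels do not explain stands in 6 library names: Young replicates 5 to 7, replicates 2 and 3 of Old control, and replicate 4 of Old OSK. These 6 had 4040 to 5493 counts over 4 Y-linked genes, the other 12 had 93 or fewer, and no Old library is among the 6. By these counts the 6 are male and the other 12 female. Sex is thus uneven between Young and Old, and fits with M as a covariate or without M libraries account for it.

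With age, 4 of the 9 tested genes rose: Atf3 5.1-fold, Junb 3.45-fold, Fosb 3.43-fold and Ier2 2.49-fold in Old against Young (edgeR's quasi-likelihood test, Benjamini-Hochberg adjusted p under 0.05 over 15944 genes). None fell. Of all genes tested, 5.4% were called higher and 4.16% lower. The log2 fold change was positive for 8 of the 9 and its median was 1.24, against 0 over all genes, and 7 of the 9 had an unadjusted p under 0.05, as did 29% of all genes. Without Old replicate 4 or without Old replicate 2 the number of calls was 1, Atf3 in each case, against 1.47% and 2.26% of all genes called higher. With M as a covariate or with the rod markers' mean as one it was also 1, Atf3, against 1.98% and 1.76%. It was 7 without Old replicate 1 and 7 in DESeq2, against 8.93% and 8.7% of all genes. Among the 8 libraries with no M in their names, 4 Young and 4 Old, 0 of the 9 were called, against 0.694% of all genes, and Atf3 had a log2 fold change of 1.95 with an adjusted p of 0.0747.

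**Figure D1:**
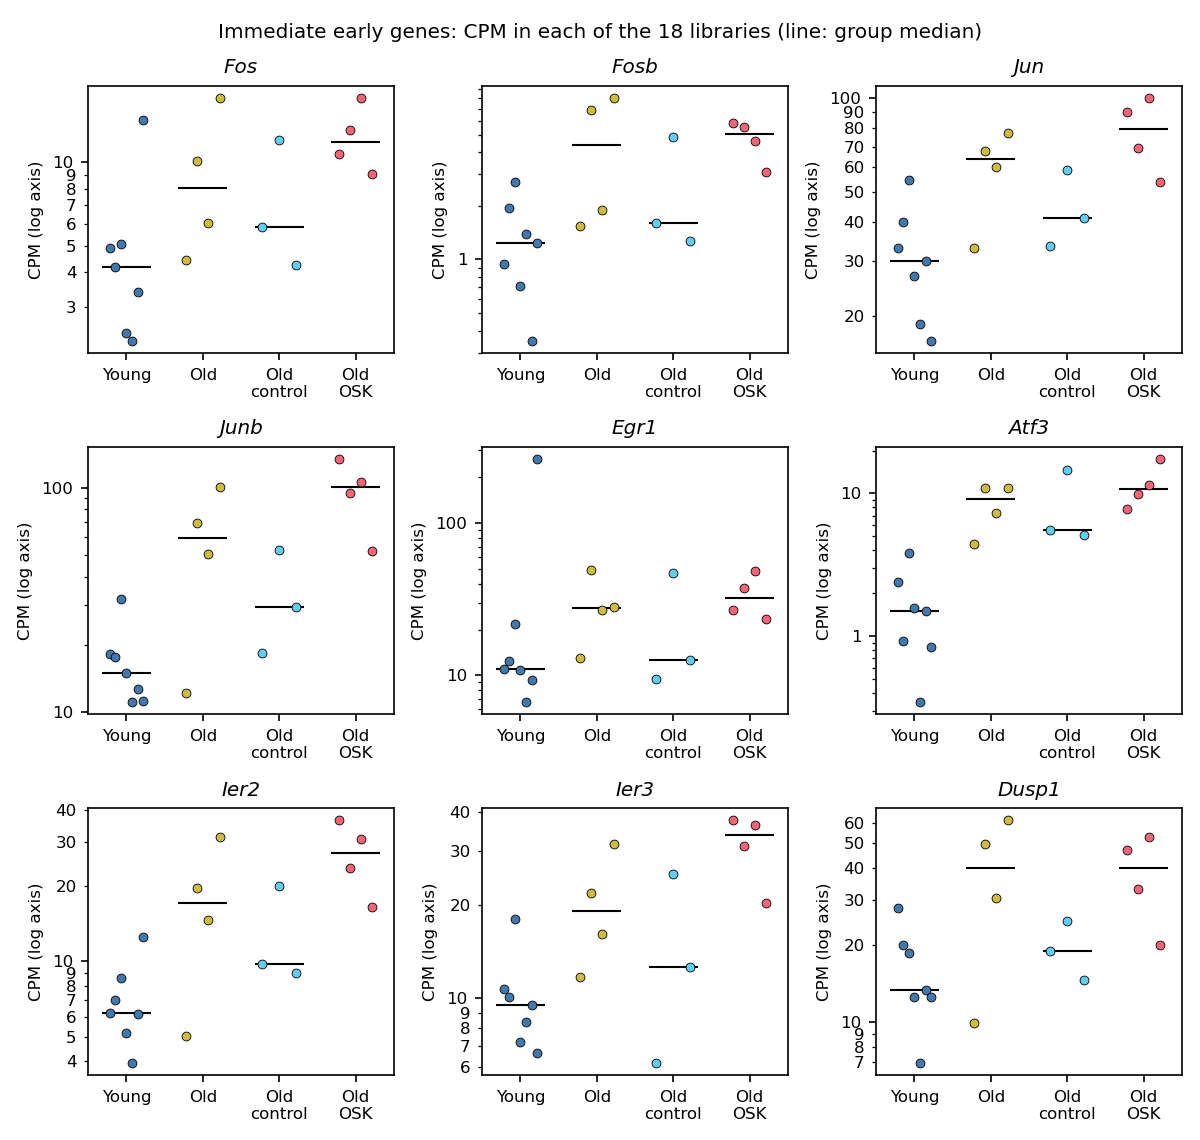
CPM of 9 immediate early genes (log axis) in each of the 18 libraries by group, with 1 point per library and a line at the group median. Atf3 is the gene whose Old libraries all lie above the Young ones, and 1 Young library stands at 262 CPM for Egr1.

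Fos and Fosb encode partners that pair with JUN proteins to form the AP-1 factor. Fos (chr12:85473890-85477273, plus strand, GENCODE M21 on GRCm38) ranged from 2.26 to 14.2 CPM in Young with a median of 4.18. In Old it was 4.45, 10.1, 6.05 and 17.1 CPM for replicates 1 to 4. The 14.2 CPM belonged to Young replicate 7, the other 6 Young libraries were at 5.05 CPM or less, and the groups overlapped. The log2 fold change of Fos was 0.86 (SE 0.47, edgeR adjusted p = 0.232). Without Young replicate 7 it was 1.33 and the gene was called (edgeR adjusted p = 0.0448). Fosb (chr7:19302696-19310051, minus strand) ranged from 0.35 to 2.73 CPM in Young with a median of 1.24. Its Old values were 1.53, 6.85, 1.89 and 8.01 CPM, so replicates 2 and 4 stood above every Young library and replicates 1 and 3 within their range. Fosb was higher in Old by 1.78 on the log2 scale (SE 0.52, edgeR adjusted p = 0.0436), and it kept its call in 3 of the 11 fits that left out 1 library. Fosl1 (chr19:5447547-5455946, plus strand), a FOS family member with little expression here, had 0 counts in 5 of the 18 libraries and at most 16. It ranged from 0 to 0.0972 CPM in Young and 0 to 0.0598 in Old. In Old control it was 0.0848 to 0.237 CPM and in Old OSK 0.124 to 0.665. Without the low-count filter it was called in none of the 3 comparisons (edgeR adjusted p of at least 0.57). Its exons share 1163 bases with those of Ccdc85b on the opposite strand, and the library kit does not mark strand, so these reads cannot be assigned with certainty.

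Jun and Junb encode the other partners of AP-1. Jun (chr4:95049034-95052222, minus strand, a single exon) ranged from 16.7 to 54.5 CPM in Young with a median of 30.1. In Old it was 33.1, 67.6, 60.3 and 77.6 CPM. Old replicates 2, 3 and 4 stood above every Young library and replicate 1 did not, and the log2 fold change was 0.92 (SE 0.29, edgeR adjusted p = 0.054). Junb (chr8:84974484-84978718, minus strand) ranged from 11.1 to 32 CPM in Young with a median of 14.9. Its Old values of 12.2, 69.3, 50.4 and 101 CPM showed the same order of libraries, with replicate 1 inside the Young range. Junb was higher in Old by 1.79 on the log2 scale (SE 0.42, edgeR adjusted p = 0.0194). It kept this call in 9 of the 11 fits that left out 1 library, and lost it when Old replicate 2 (adjusted p = 0.0542) or Old replicate 4 (adjusted p = 0.118) was left out. Exons of Jun and Junb share 232 bases with Junos and 173 with Prdx2, both on the opposite strand, so a part of their reads could belong to those genes.

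Egr1 encodes a zinc finger transcription factor that reads out MAP kinase signals. It ranged from 6.71 to 262 CPM in Young with a median of 11, and the 262 CPM of Young replicate 7 was 23.9 times the median of the other 6 Young libraries. In Old it was 13.1, 49.1, 26.9 and 28.1 CPM. Without that library the Young values would end at 21.6 CPM, with 3 of the 4 Old libraries above them. The log2 fold change of Egr1 was -0.70 (SE 0.92, edgeR adjusted p = 0.656) with all libraries and 1.28 (adjusted p = 0.08) without Young replicate 7. With that library in the data it was positive in DESeq2 (1.12) and with M as a covariate (0.68). DESeq2 can by default replace outlying counts in groups as large as Young, and Young replicate 7 carries M. Neither value is thus independent of how that library is treated. The same library was the highest of the Young group for Fos and Ier2 and the lowest for Jun and Ier3.

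Atf3 encodes a factor of the CREB family that is induced by cellular stress. The gene (chr1:191170296-191218039, minus strand) ranged from 0.347 to 3.83 CPM in Young with a median of 1.5. In Old it was 4.41, 11, 7.31 and 11 CPM. Every Old library stood above every Young library, which held for 3.69% of all genes in this direction. Atf3 was higher in Old by 2.35 on the log2 scale (SE 0.47, edgeR adjusted p = 0.00695). It stayed called in all 11 fits that left out 1 library, with adjusted p between 0.00229 and 0.032.

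Ier2 encodes a short-lived nuclear regulator and Ier3 a protein that modulates survival and NF-kappaB signals. Ier2 (chr8:84661331-84662852, minus strand, a single exon) ranged from 3.94 to 12.5 CPM in Young with a median of 6.25. In Old it was 5.03, 19.5, 14.6 and 31.2 CPM, with replicate 1 below the Young median and the other 3 above every Young library. Ier2 was higher in Old by 1.31 on the log2 scale (SE 0.38, edgeR adjusted p = 0.0425), and 3 of the 11 fits that left out 1 library still called it. Ier3 (chr17:35821684-35822923, plus strand) ranged from 6.64 to 18 CPM in Young with a median of 9.49. Its Old values were 11.7, 22, 16.2 and 31.6 CPM, and replicates 2 and 4 were the ones above the Young range. For Ier3 the log2 fold change was 1.01 (SE 0.34, edgeR adjusted p = 0.0647).

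Dusp1 encodes a phosphatase that switches off MAP kinases and so closes the loop that induces these genes. The gene (chr17:26505590-26562128, minus strand) ranged from 6.95 to 27.9 CPM in Young with a median of 13.4. In Old it was 9.96, 49.5, 30.5 and 61.4 CPM. Replicates 2, 3 and 4 stood above every Young library and replicate 1 below the Young median. The log2 fold change was 1.24 (SE 0.4, edgeR adjusted p = 0.0573).

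**Figure D2:**
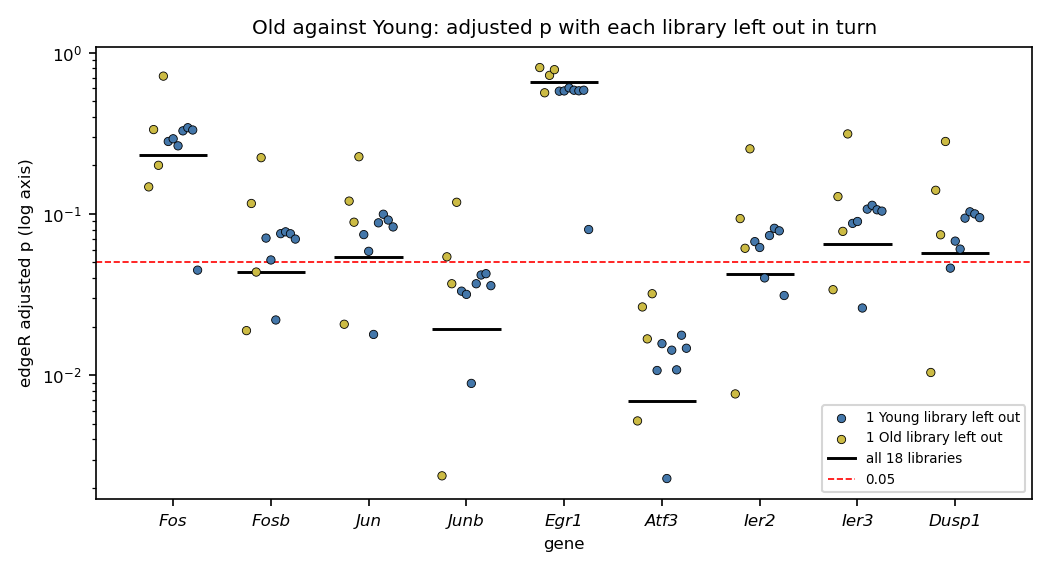
edgeR adjusted p (log axis) of each gene for Old against Young with 1 library left out in turn (points) and with all 18 libraries (line), with the 0.05 threshold dashed. Atf3 lies under the threshold in all 11 fits, Junb in 9, and Egr1 and Fos move most when Young replicate 7 is left out.

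The other genes of the same pathway were counted from lists with known roles, chosen with earlier results of these data known. Their shares are therefore descriptions and not an independent test. Of 38 tested further early response genes, 13 rose in Old against Young (34.2%, against 5.4% of all genes) and none fell, with a median log2 fold change of 0.62. Those with the lowest p were Maff, a small MAF factor (log2 fold change 1.54, edgeR adjusted p = 0.0123), Cebpd, an acute phase factor (0.66, adjusted p = 0.0166), and Nfkbia, the inhibitor of NF-kappaB (0.59, adjusted p = 0.0221). Without Old replicate 4, 0 of the 38 were called, and the other fits that left out 1 library called 3 to 16. Of the 23 upstream kinases and transcription factors, 0 rose and 1 fell, Braf, a kinase of the RAS pathway (log2 fold change -0.34, edgeR adjusted p = 0.0267), and their median was 0. That is 4.35% of the list, near the 4.16% of all genes called lower. The list had 0 genes called lower without Young replicate 5 or 7, without Old replicate 3 or 4, with M or the rod score as a covariate, and among libraries with no M, and 2 without Old replicate 1. Among 15 other dual-specificity phosphatase and Sprouty genes, which damp the same signals, 2 rose (13.3%), Dusp16 (0.69, adjusted p = 0.0156) and Dusp8 (1.62, adjusted p = 0.0233), and the median was -0.12. Among 13 heat shock genes, 2 rose (15.4%), the co-chaperone gene Dnajb1 (0.61, adjusted p = 0.0251) and Hspa1b (2.2, adjusted p = 0.0303), whose reads can be shared with its near-identical copy Hspa1a. Of the 13 heat shock genes, 6 had a positive and 7 a negative log2 fold change, with a median of 0. Without Old replicate 4, 0 genes of either list were called higher. The heat shock list also had 0 without Young replicate 6 or Old replicate 2, and 1 without Young replicate 1, 4, 5 or 7. The phosphatase and Sprouty list had 1 without Old replicate 2. With M as a covariate 0 of either list were called higher.

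With OSK, 0 of the 9 tested genes passed the test against Old control (edgeR, adjusted p under 0.05), against 0.408% of all genes called higher and 0.32% lower. All 9 log2 fold changes were positive and their median was 0.87, against -0.03 over all genes. At an unadjusted p under 0.05 there were 4, Jun, Junb, Ier2 and Ier3, against 13.3% of all genes in that direction, and DESeq2 called 1, Junb (log2 fold change 1.55, adjusted p = 0.0392), against 6.37% of all genes. Old OSK and Old control overlapped for all 9 genes, while 6.55% of all genes lay higher without overlap. Old control replicate 2 was part of every overlap. Each of the 9 genes was higher in all 4 Old OSK libraries than in Old control replicates 1 and 3. That held for 22.5% of all genes, and the library to leave out was chosen after these values had been seen. Each gene had at least 1 Old OSK library below Old control replicate 2. For Jun, Junb, Ier2, Ier3 and Dusp1 this was Old OSK replicate 4 alone. Without Old control replicate 2, 2 of the genes were called, Junb (log2 fold change 1.98, edgeR adjusted p = 0.0419) and Ier3 (1.71, adjusted p = 0.0197), against 6.25% of all genes called higher. Without Old OSK replicate 4 instead, 0 of the 9 were called, while 1738 of 15850 genes were called in either direction. Libraries with M in the name are 2 of 3 in Old control and 1 of 4 in Old OSK, so a comparison within either kind leaves 1 library on a side, and with M as a covariate 0 of the 9 were called.

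**Figure D3:**
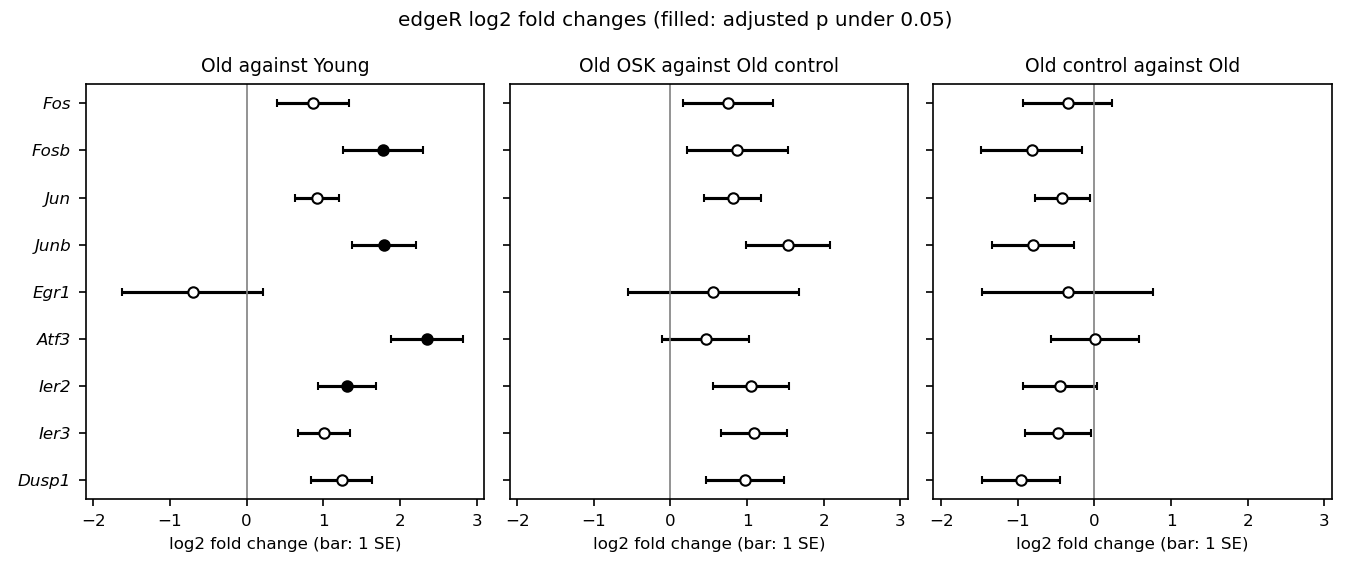
edgeR log2 fold change of each gene in the 3 comparisons (points, with bars of 1 SE), filled where the adjusted p was under 0.05. Atf3, Junb, Fosb and Ier2 are filled in Old against Young, and no gene is filled in the other comparisons.

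Among the AP-1 genes, Fos was 5.85, 12.1 and 4.25 CPM in Old control and 10.7, 13.1, 17.1 and 9.06 CPM in Old OSK (log2 fold change 0.75, SE 0.59, edgeR adjusted p = 0.455). Fosb was 1.61, 4.87 and 1.27 CPM against 5.81, 5.49, 4.58 and 3.1 CPM (log2 fold change 0.87, SE 0.66, edgeR adjusted p = 0.437). In both genes Old OSK replicate 4 was the lowest of its group and Old control replicate 2 the highest of its own. Jun was 33.5, 59 and 41.3 CPM in Old control and 90.2, 69, 100 and 53.9 CPM in Old OSK (log2 fold change 0.81, SE 0.37, edgeR adjusted p = 0.172). Junb was 18.4, 52.6 and 29.4 CPM against 134, 95, 106 and 52.1 CPM, the largest difference among the 9 genes (log2 fold change 1.53, SE 0.55, edgeR adjusted p = 0.111). For both JUN genes the overlap came from Old OSK replicate 4 lying below Old control replicate 2.

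Egr1 was 9.5, 46.7 and 12.7 CPM in Old control and 26.8, 37.2, 48.6 and 23.6 CPM in Old OSK (log2 fold change 0.56, SE 1.11, edgeR adjusted p = 0.81). Atf3 was 5.56, 14.7 and 5.12 CPM against 7.84, 9.94, 11.4 and 17.4 CPM (log2 fold change 0.46, SE 0.57, edgeR adjusted p = 0.675). For these 2 genes Old control replicate 2 stood above 3 of the 4 Old OSK libraries. Ier2 was 9.8, 20 and 8.97 CPM in Old control and 36.5, 23.5, 30.7 and 16.5 CPM in Old OSK (log2 fold change 1.05, SE 0.49, edgeR adjusted p = 0.183). Ier3 was 6.19, 25.2 and 12.6 CPM against 37.7, 31.1, 36.3 and 20.3 CPM (log2 fold change 1.09, SE 0.43, edgeR adjusted p = 0.132). Dusp1 was 18.9, 24.8 and 14.6 CPM in Old control and 46.9, 33, 52.8 and 20 CPM in Old OSK (log2 fold change 0.97, SE 0.51, edgeR adjusted p = 0.239). Old OSK replicate 4 was the lowest of its group for all of the 9 genes but Atf3, for which it was the highest.

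The upstream and related lists had 0 calls between Old OSK and Old control too (edgeR). At an unadjusted p under 0.05 there were 17 of 38 further early response genes, 7 of 23 upstream genes, 6 of 15 phosphatase and Sprouty genes and 6 of 13 heat shock genes, against 26.3% of all genes. The median log2 fold change was 0.56 for the early response list, with the lowest p at Nfkbia (0.74, edgeR adjusted p = 0.0631), the kinase gene Sik1 (1.25, adjusted p = 0.069) and Mcl1, an inhibitor of apoptosis (0.57, adjusted p = 0.072). For the phosphatase and Sprouty list it was -0.34, and for the heat shock list 0.1, with 7 genes positive and 6 negative. With the replicate number as a block, 4 of the early response genes were called higher, 2 of the upstream genes, 1 heat shock gene, and 1 phosphatase or Sprouty gene lower. The blocked fit called 0 of the 9 genes described here, against 2.5% of all genes called higher, with the lowest adjusted p at Junb (0.0615). Its blocks for replicates 2 and 3 join an Old control library with M to an Old OSK library without, so this pairing is uncertain.

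Vector without OSK against untreated Old separated none of the 9 tested genes: 0 of 9 were called and 0 had an unadjusted p under 0.05 (edgeR), and DESeq2 called 0. Of all genes 0% were called and 3.74% had an unadjusted p under 0.05. The log2 fold changes ran from -0.96 for Dusp1 to 0.01 for Atf3, with adjusted p of at least 0.9, and the libraries of Old and Old control overlapped for all 9 genes. Old is also a side of the age comparison and Old control of the OSK comparison, so the 3 sets of differences share libraries. The standard errors of these log2 differences ran from 0.36 to 1.11.

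Ordered by group median, 8 of the 9 genes ran from Old OSK through Old and Old control to Young, and Dusp1 had Old first. Neighbouring groups in that order overlapped for every gene, except Old control and Young for Atf3. At the ends of the order, all Old OSK libraries stood above all Young libraries for Fosb, Junb, Atf3, Ier2 and Ier3, which held for 12.6% of all genes. Single libraries departed from their groups. Old replicate 1 was above every Young library in 1 of 9 genes and Old replicate 4 in 8. Old control replicate 2 was above every Young library in 6 genes, and Old control replicates 1 and 3 in 1 each. Old OSK replicates 1 to 4 were above them in 7, 7, 8 and 5.

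Per kilobase of merged exons (GENCODE M21), which allows levels of different genes to be compared, Egr1 had the highest Young mean at 10.6 CPM per kb, a value that Young replicate 7 sets. Jun followed at 9.87, Ier3 at 8.91 and Junb at 7.31. Old OSK was led by Junb at 42.1 CPM per kb, followed by Ier3 at 27.7 and Jun at 24.5. Fosb stayed the lowest of the 9 in each group, at 0.213 CPM per kb in Young and 0.76 in Old OSK. Fos was at 2.21 in Young and 5.31 in Old OSK. Fos and Fosb were thus less abundant as transcripts than Jun and Junb in both groups.

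Across the 18 libraries all pairs of the 9 genes correlated positively. Pearson's r of log2 CPM between the 36 pairs of genes ranged from 0.23 to 0.94 with a median of 0.78. The low values belonged to Egr1, whose 8 pairs had a median of 0.38. Without Young replicate 7 all 36 pairs lay between 0.69 and 0.98, the highest being Junb with Ier2. With the group means subtracted, the median over 36 pairs was 0.58, and 0.26 over the 8 pairs with Egr1, the lowest of which was 0.01. These correlations are descriptions over libraries that share depth, tissue composition and preparation.

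**Figure D4:**
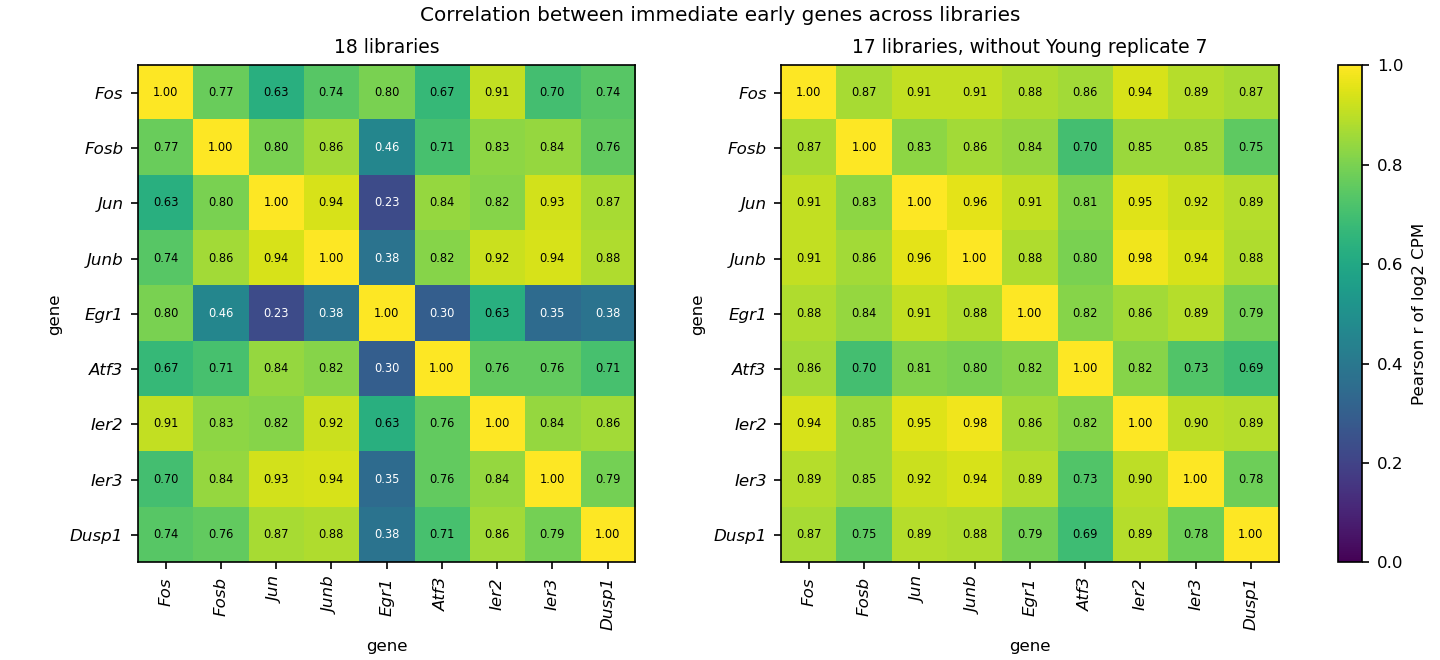
Pearson's r of log2 CPM for each pair of the 9 genes over 18 libraries (left) and over the 17 without Young replicate 7 (right). The row and column of Egr1 hold the low values on the left, and on the right no pair is under 0.69.

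The mean log2 CPM of the 9 genes ran from 2.1 to 3.62 in Young, 2.96 to 4.92 in Old, 3.17 to 4.51 in Old control and 4.19 to 4.96 in Old OSK. Over the 18 libraries it went with the first principal component of all genes (Pearson's r = 0.91, and 0.75 with the group means subtracted). It also went with the mean log2 CPM of the heat shock list (0.89 and 0.77) and of the further early response genes (0.95 and 0.9). The summed CPM of the heat shock list was not higher in Old OSK, at 4348 to 4934 against 4644 to 7152 in Young. The RPE markers ran against the mean of the 9 genes (-0.85 and -0.66), and so did the stroma markers (-0.73 and -0.52). Rod markers had r = 0.59 and 0.27, immune markers 0.69 and -0.24, melanocyte markers -0.64 and 0.01, and the upstream list 0.65 and 0.71. Of the measures of library quality, the number of genes with a count had r = 0.74 and 0.4, the mitochondrial share of counts -0.23 and the total count -0.01 over the 18 libraries. The summed immune markers were 484.5 to 681.7 CPM in Young and 685.6 to 1160 in Old, and 8 of 11 were called higher with age, against 5.4% of all genes. Of these measures only the rod markers entered a fit as a covariate, which left 1 of the 4 calls with age, Atf3 (log2 fold change 1.86, edgeR adjusted p = 0.0261). The part of the others in the differences of the 9 genes was not tested.

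**Figure D5:**
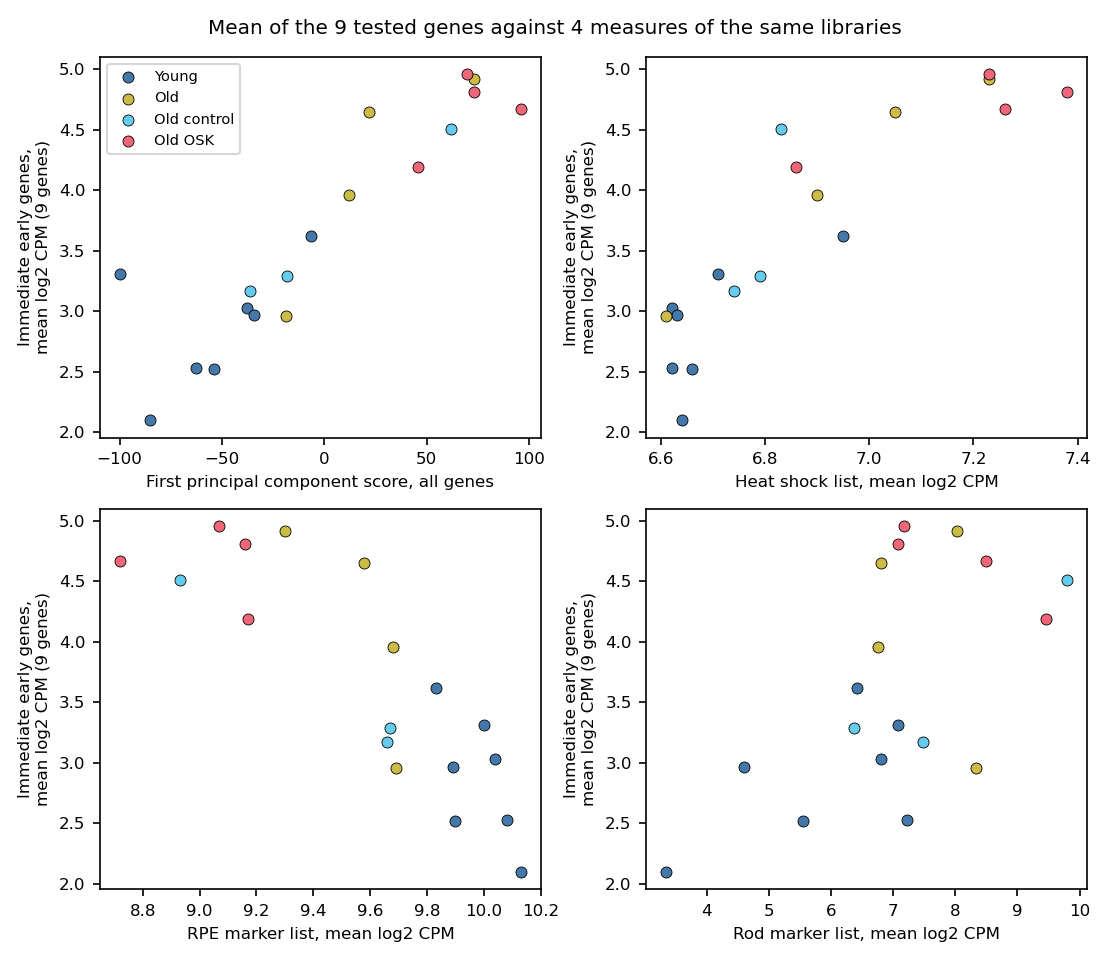
Mean log2 CPM of the 9 genes in each library (y axis) against 4 measures of the same library: the first principal component score, and the mean log2 CPM of the heat shock, RPE and rod lists. Libraries high in the immediate early genes are high on the component and in the mean log2 CPM of the heat shock list, and low in RPE markers.

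Outside the 10 genes, 10227 genes whose mean log2 CPM was 3 or more were compared with the same mean. The most alike over 18 libraries were Mob3a (Pearson's r = 0.957), Tppp (0.943), the chromatin factor gene Ssrp1 (0.941), Phlda1 (0.937) and the growth factor gene Hbegf (0.933). With the group means subtracted, Ssrp1 (0.917), Rnf6 (0.894) and Mob3a (0.892) led.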

How the data were processed

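The authors deposited raw counts per gene for the 18 libraries in 1 table. Per the submitters' processing notes, STAR 2.7.1a, featureCounts 1.6.2 and the builds GRCm38 (mm10) and GRCh38 (hg38) were used. The annotation, strand setting and treatment of reads with several matches are not given in the sources used here. Per the labels' protocols, polyA RNA was amplified with a SMART-Seq v4 kit and made into Nextera XT libraries, which do not mark strand. PCR reads without molecular identifiers make counting error a lower limit.

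Low counts were removed by edgeR 4.0.16 (filterByExpr with a minimum count of 10 and a total of 15). The rest were scaled by TMM and fitted with 4 group means over all 18 libraries by the quasi-likelihood test (R 4.3.3), with Benjamini-Hochberg adjustment over 15944 genes. A gene was called at an adjusted p under 0.05. CPM values are counts over the TMM-scaled library size, log2 CPM uses a prior count of 2, and the SE is the log2 fold change over the root of F. The model was run on simulated data with counts drawn independently for each gene. Libraries that depart from their group as a whole were not covered by it. The members, lists and tests were chosen with earlier results of these data known. All 10 members are named, and of each other list up to 3 genes with the lowest p and a mean log2 CPM of at least 1. Genes alike in pattern were the 5 with the highest r.

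No 2 libraries of a group agreed within counting noise (the lowest chi-square per gene over 36 pairs was 21.2), so none were merged. Old OSK and Old control libraries with the same number deviated from their group means with correlations of 0.103, 0.421 and 0.339. On this check alone the numbers were taken as pairs in that comparison, and no values for unequal numbers are given here. Replicates 2 and 3 carry M in Old control and not in Old OSK, so these pairs differ in Y-linked counts and the pairing is uncertain. Alternatives were DESeq2 1.42.0, other scalings and filters, covariates, a replicate block and leaving out each library.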

Additional observations from a re-analysis of the deposited data

Results flagged for a closer look

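Dixon's test, which compares the gap to the nearest library with the range of the group, set 4 values apart among 30 gene and group combinations of at least 4 libraries. Chance sets about 5% of such groups apart if values are normally distributed, and genes of 1 library are not independent. The values used were CPM and not log2 CPM. Egr1 was 262 CPM in Young replicate 7, where the next Young library had 21.6. Fos was 14.2 CPM in the same library, where the next had 5.05. Junb was 32 CPM in Young replicate 3 against 18.2 in the next, and Ier3 was 18 CPM in that library against 10.7. No Old or Old OSK library was set apart for any of the 10 genes.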

How the results depend on the processing

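For Old against Young, the 4 calls became 7 in DESeq2, 1 with M as a covariate and 1 with the rod score as a covariate. They became 0 with the replicate block and 0 in the same libraries unpaired, which is the fit among libraries with no M. These fits do not hold Young replicates 5 to 7. With Old replicate 4 and Old control replicate 2 both left out, an alternative chosen after seeing the data, there was 1 call. Leaving out 1 library gave 1 to 7. For Old OSK against Old control, the 0 calls became 1 in DESeq2, 2 in the paired libraries without a block, 3 with both libraries left out, and 0 to 2 with 1 library left out, and stayed 0 with the block. The cause was not tested. Genes called in all were 1524 for age (0 with the block, 191 unpaired or with no M, 600 with M, 483 with the rod score, 2450 in DESeq2, 622 with both left out, 393 to 2140 with 1 left out) and 116 for OSK (2 in the 2 groups alone, 58 with M, 461 with the block, 990 unpaired, 1583 in DESeq2, 3729 with both left out, 13 to 2881 with 1 left out).

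Egr1 changed sign with age in DESeq2 (1.12), with M as a covariate (0.68) and over the fits leaving out 1 library (-1.06 to 1.28). It also did with the replicate block (0.98) and in the same libraries unpaired (1.07), which is the fit among libraries with no M. These fits do not hold Young replicate 7. In Old control against Old, where no gene was called, Atf3 changed sign with median-ratio size factors (-0.02), no filter (-0.01), DESeq2 (-0.02), the rod score (-0.37), both libraries left out (-0.5) and 1 left out (-0.65 to 0.27). Fos did with the block (0.04), unpaired (0.11) and 1 left out (-0.89 to 0.11), Ier2 with the block (0.07) and Egr1 with 1 left out (-1.39 to 0.02). In Old OSK against Old control no gene changed sign in 162 values. Equal numbers did not pair Old with Young (r = -0.05, -0.019, 0.144 and -0.193). Depth limits Fosl1, which the low-count filter removed.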

Other observations

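Young replicate 7, the library with 262 CPM of Egr1, was the highest Young library for 7 of 33 further early response genes with a mean of at least 2 CPM. That is 21.2%, against 20.5% of all 13028 genes at this level. Young replicate 3 was the highest for 15 of the 33 (45.5%, against 18.9% of all genes). The genes led by Young replicate 7 are named after their values were seen. Nr4a1, an orphan nuclear receptor gene, was 1.91 times the next Young library, Ccn1, which encodes a matrix signalling protein, 1.8 times, and Zfp36, which encodes a factor that destabilises mRNA, 1.37 times. Plk3, Zfp36l1, Trib1 and Errfi1 were 1.08 to 1.22 times the next.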
